A study of Mus musculus with 8 samples.

Results

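Slc17a7, Neurod6, Neurod2, Neurod1, Emx1, Nrgn, Bhlhe22 and Mef2c are genes by which excitatory neurons of the cortex are recognised. They were taken by name as 8 of the 13996 genes whose expression was given for mouse brain cortex, 12531 of them mRNAs. Each of the 8 had a row, and each passed the filter on low expression. The rRNA-depleted RNA of each mouse gave 1 library, for 4 mice on a normal diet and 4 on a high fat diet. All were male C57BL/6 mice, obtained at 8 weeks of age and 16 weeks old when the cortex was taken. Normal mice ate a conventional diet for the 8 weeks of feeding, and high fat diet fed mice (HFD mice) a diet with 60% fat, and no other treatment or allele set the groups apart. The cortex was taken from the whole mixture of cells, so that fewer cells of a type and less RNA per cell cannot be told apart in any value below. Whether the members of the group change together between the diets was the question asked of them.

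Excitatory neurons of the cortex arise from the dorsal telencephalon and release glutamate. Their identity is set by transcription factors of several families. Emx1 is a homeobox factor that marks the dorsal telencephalon and its excitatory offspring. Neurod1, Neurod2 and Neurod6 are basic helix-loop-helix factors that act as dimers on short DNA motifs called E-boxes (CANNTG) while neurons differentiate, and Neurod2 and Neurod6 stay on in mature neurons. Bhlhe22 is a helix-loop-helix factor of postmitotic projection neurons, and Mef2c is a MADS-box factor that couples neuronal activity to transcription. Slc17a7 encodes the vesicular transporter that fills synaptic vesicles with glutamate in most cortical excitatory neurons. Nrgn encodes neurogranin, which holds calmodulin at the postsynapse. Outside the cortex, Slc17a7, Neurod1 and Neurod2 are also expressed by granule cells of the cerebellum.

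Expression was given as FPKM, in which fragments are counted per length of transcript and per mapped read, so that levels of different genes can be set beside each other. The values are rounded to 0.1 and do not tell how many reads stand behind them. Summed over genes, a mouse had 562431 to 639142 FPKM. Markers of other brain regions did not stay level across the libraries. The summed FPKM of 7 cerebellar granule cell genes was 17.9, 215.6, 302.1 and 69.1 in normal mice 1 to 4 and 12.7 to 16.1 in HFD mice. Its defining markers were high in normal mice 2 and 3, where Cbln3, a cerebellin of granule cells, reached 37.3 and 56.1 FPKM against 0.2 to 0.6 in HFD mice, and Gabra6, a granule cell subunit of the GABA receptor, was listed at 0 in HFD mouse 1. Thalamic markers were also highest in normal mice 2 and 3 (113.7 and 96.8, against 38.6 to 56.0 in the other mice). Striatal markers summed to 241.2 to 443.1 in normal mice and 80.2 to 90.1 in HFD mice, and markers of oligodendrocytes to 2202.2 to 3613.6 and 1515.6 to 2096.5. The replicate number is only a name. The p-values set the difference between the diets against the spread between mice of a diet. Because the sources do not describe cages or litters, an effect shared by a cage or litter cannot be told apart from diet.

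In HFD mice 3 of the 8 genes were higher, 0 were lower and 5 did not pass the adjusted threshold of 0.05 (limma on log2(FPKM + 0.1), two-sided, adjusted over 13982 genes). The genes called higher were Emx1, Slc17a7 and Neurod2. At an unadjusted p below 0.05, 4 were higher, with Mef2c added, and 1, Neurod1, was lower. Over all genes tested 17.7% were higher and 15.3% lower, so the 3 of 8 stand beside a background in which such calls are common. Of all calls 53.6% were higher, and 32.9% after the values were centred on pan-neuronal genes. The median log2 fold change of the 8 genes was 0.29, against 0.00311 over all genes tested. Only Emx1 also changed by more than 50%, a step that 4.23% of genes passed upward and 2.9% downward. For Slc17a7 and Emx1 the FPKM of each HFD mouse lay above that of each normal mouse, a pattern found for 17.2% of all genes, with the opposite pattern for 14.7%.

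**Figure D1:**
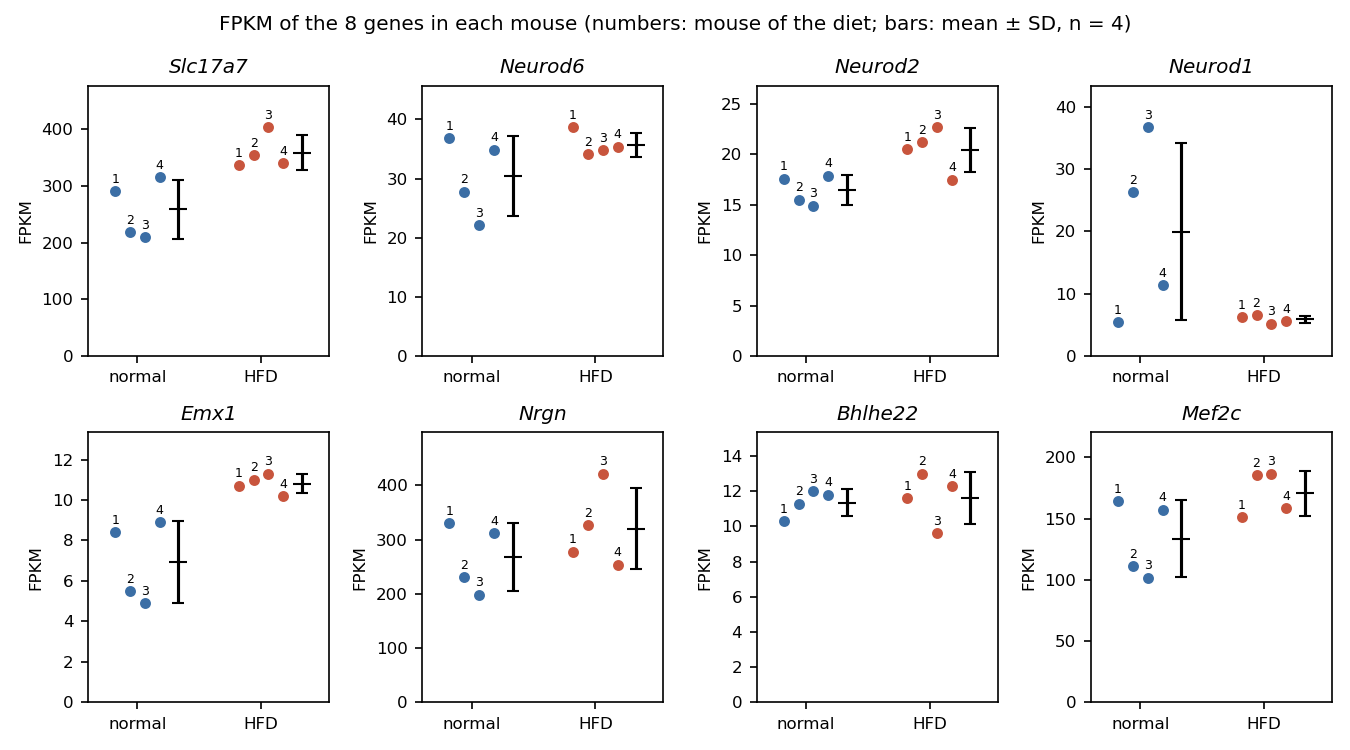
FPKM (vertical axes, each from 0) of the 8 genes in normal (blue) and HFD (red) mice, 1 numbered point per mouse, with bars for the mean ± SD of 4 mice. Normal mice 2 and 3 are the lowest of the 8 mice for Slc17a7, Neurod6, Neurod2, Emx1, Nrgn and Mef2c and the highest for Neurod1.

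The calls of Slc17a7 and Neurod2 were lost without normal mice 2 and 3, the libraries with the highest cerebellar and thalamic markers. Both were also lost without HFD mouse 3 alone, and with the replicate number in the fit. The mean of normal mice 2 and 3 was between 60.1% and 85.6% of the mean of normal mice 1 and 4 for 6 of the 8 genes, 105% for Bhlhe22 and 377% for Neurod1. Without normal mice 2 and 3, a choice made after seeing the data, 1 of the 8 genes (Emx1) was called, with fewer mice in the fit. There 11.0% of 13904 genes were higher and 8.67% lower. With the cerebellar granule cell genes as a covariate, 0 of the 8 were called by limma, and 0.994% of genes were higher and 1.02% lower. At an unadjusted p below 0.05 that fit had 2 of the 8, Neurod1 and Neurod6. The covariate itself differed between the diets, since the summed FPKM of its genes was higher in each normal mouse than in each HFD mouse. It can therefore take up part of a diet difference, and a fit with it cannot separate diet from these markers. Cerebellar granule markers were also higher in normal mice 1 and 4 (17.9 and 69.1 summed FPKM) than in HFD mice (12.7 to 16.1). Leaving out normal mice 2 and 3 therefore did not remove that difference between the diets. Striatal, hippocampal and oligodendrocyte markers separated the diets in the other normal mice too, and their part in these differences was not tested.

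**Figure D2:**
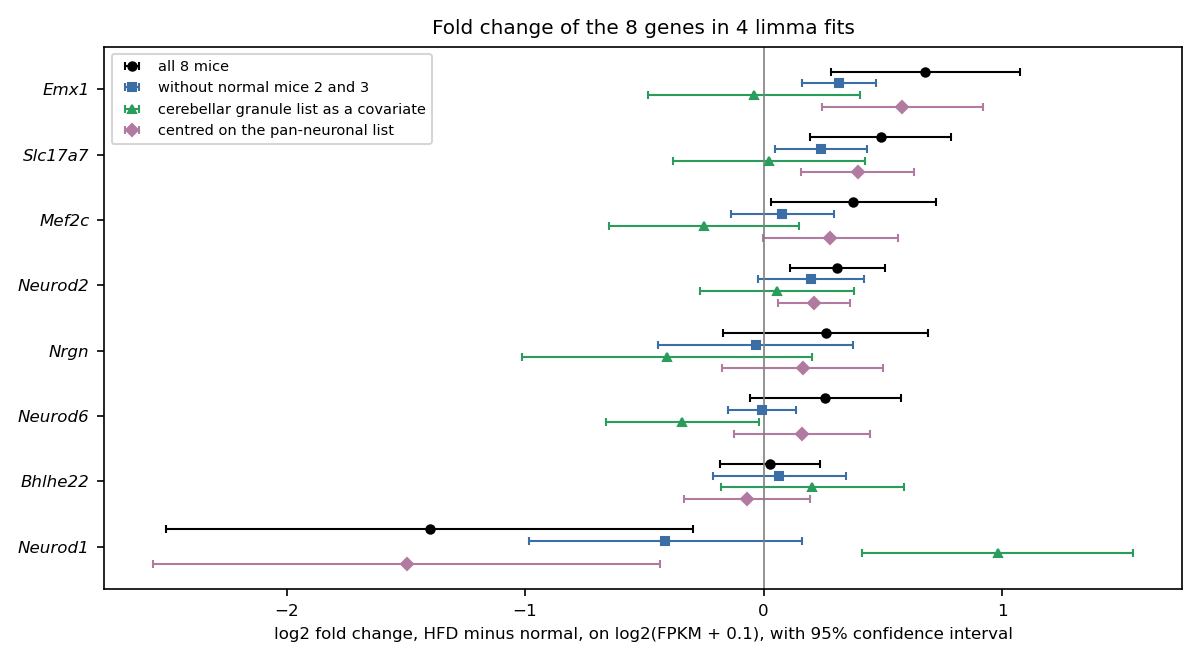
Log2 fold change (horizontal axis, HFD minus normal, on log2(FPKM + 0.1)) of the 8 genes with 95% confidence intervals in 4 limma fits. Emx1 moves from 0.68 with all 8 mice to 0.32 without normal mice 2 and 3 and to -0.04 with the covariate, while centring on pan-neuronal genes leaves it at 0.58.

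Emx1, the factor of dorsal origin, rose in HFD mice. Emx1 (ENSMUSG00000033726.8, chromosome 6 of GRCm38, 85187438 to 85204462, plus strand) was 8.4, 5.5, 4.9 and 8.9 FPKM in normal mice 1 to 4 and 10.7, 11.0, 11.3 and 10.2 FPKM in HFD mice 1 to 4. The HFD mice lay close together and above each normal mouse, and within the normal diet mice 2 and 3 were low. The mean rose from 6.93 ± 2.02 to 10.8 ± 0.469 FPKM (SD, n = 4 each). The log2 fold change was 0.68 (SE 0.18, 95% confidence interval 0.28 to 1.07, limma adjusted p = 0.0169), a 1.60-fold increase, with an exact two-sided permutation p = 0.0286, the smallest that 4 against 4 mice can give. It stayed past the threshold with any 1 mouse left out, at 0.53 to 0.81. Without normal mouse 3 the change no longer reached 50%. Without normal mice 2 and 3 the difference was 0.32 (SE 0.07, limma adjusted p = 0.0180), and with the cerebellar covariate it was -0.04 (limma adjusted p = 0.928).

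Emx2, the paralog of Emx1 that patterns the same territory, lay near the lower limit of the filter and did not pass the test. Its mean was 1.88 ± 0.377 FPKM in normal mice and 2.05 ± 0.289 in HFD mice (log2 fold change 0.13, limma adjusted p = 0.557), and without normal mice 2 and 3 the sign turned (-0.11). The ratio of Emx1 to Emx2 was 3.82, 3.67, 3.06 and 4.05 in normal mice 1 to 4 and 6.29, 5.24, 4.71 and 5.10 in HFD mice 1 to 4. The ratios of the diets did not overlap, so the paralogs moved unequally, and normal mice 2 and 3 stood less far apart in this ratio than in Emx1 itself.

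The 3 Neurod factors took different courses. Neurod2 (ENSMUSG00000038255.6, chromosome 11, 98325415 to 98329648, minus strand, 2 exons) was 17.6, 15.5, 14.9 and 17.9 FPKM in normal mice 1 to 4 and 20.5, 21.2, 22.7 and 17.5 FPKM in HFD mice 1 to 4. HFD mouse 4 fell within the range of the normal mice, and the other HFD mice lay above it. The means were 16.5 ± 1.5 and 20.5 ± 2.19 FPKM (SD, n = 4 each). Neurod2 rose by 0.31 on the log2 scale (SE 0.09, 95% confidence interval 0.11 to 0.51, limma adjusted p = 0.0262), a 1.24-fold change, while the exact permutation p was 0.0857. The call was lost without normal mouse 2 or 3 or HFD mouse 1, 2 or 3, with limma adjusted p between 0.0597 and 0.0704. Without both normal mice 2 and 3 the difference was 0.20 (limma adjusted p = 0.179), and with the covariate 0.06 (limma adjusted p = 0.857).

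Neurod6 (ENSMUSG00000037984.9, chromosome 6, 55677822 to 55681263, minus strand, 2 exons), which marks mature pyramidal neurons, was 36.8, 27.8, 22.1 and 34.9 FPKM in normal mice 1 to 4 and 38.7, 34.1, 34.8 and 35.4 FPKM in HFD mice 1 to 4. Normal mice 1 and 4 lay among the HFD mice, and normal mice 2 and 3 below them. The means of 30.4 ± 6.75 and 35.8 ± 2.04 FPKM gave a log2 fold change of 0.26 (SE 0.14, 95% confidence interval -0.06 to 0.58, limma adjusted p = 0.182). Without normal mice 2 and 3 the difference was -0.01 (limma adjusted p = 0.960), and with the covariate -0.34 (limma adjusted p = 0.215).

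Neurod1 (ENSMUSG00000034701.9, chromosome 2, 79452521 to 79456751, minus strand, 2 exons) went the other way. It was 5.4, 26.3, 36.7 and 11.3 FPKM in normal mice 1 to 4 and 6.2, 6.5, 5.2 and 5.6 FPKM in HFD mice 1 to 4. Normal mouse 1 lay within the HFD range, and the other normal mice lay above it, in the same order as their cerebellar markers. The normal mice differed 6.80-fold between the highest and the lowest, against 1.25-fold for the HFD mice. With means of 19.9 ± 14.2 and 5.88 ± 0.585 FPKM (SD, n = 4 each), the log2 fold change was -1.40 (SE 0.49, 95% confidence interval -2.51 to -0.29), which missed the threshold (limma adjusted p = 0.0538, exact permutation p = 0.114). It passed the threshold without normal mouse 1 (-1.90, limma adjusted p = 0.00455) and after centring on pan-neuronal genes (-1.50, limma adjusted p = 0.0384). Without normal mice 2 and 3 it was -0.41 (limma adjusted p = 0.273). With the covariate the sign turned to 0.98 (limma adjusted p = 0.0778). In the annotation Neurod1 lies wholly within the span of Cerkl on the same strand and overlaps the lincRNA Gm26755 on the opposite strand by 2767 bp. Neither had a row in the values used here, and no source used here says whether strand was used in counting.

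**Figure D3:**
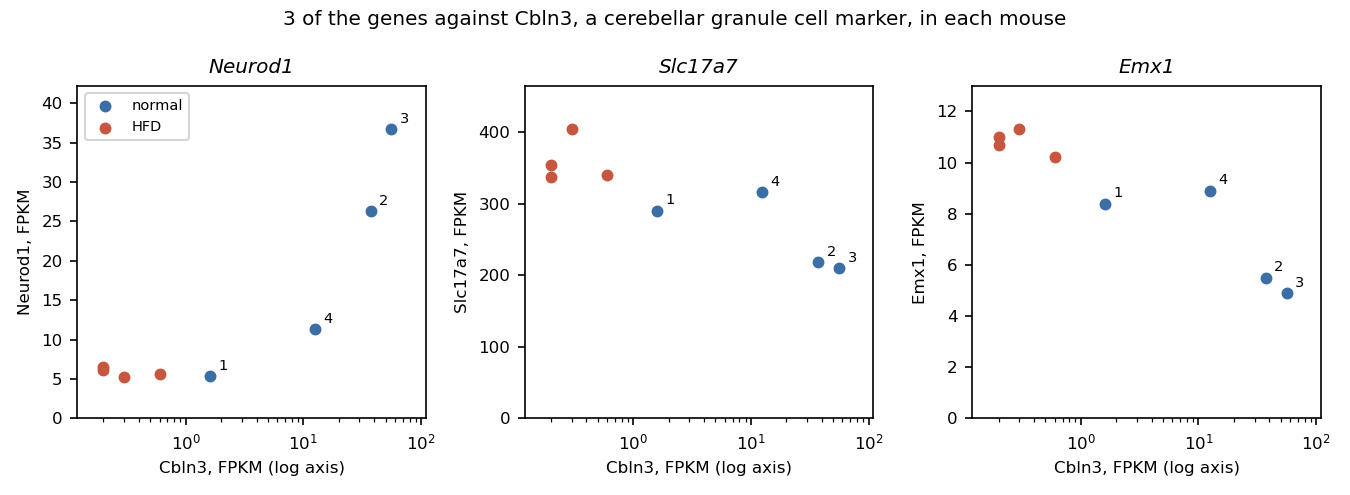
FPKM of Neurod1, Slc17a7 and Emx1 (vertical axes, from 0) against FPKM of Cbln3, a granule cell marker of the cerebellum (horizontal log axis), in normal (blue, numbered) and HFD (red) mice. Normal mice 2 and 3, with Cbln3 at 37.3 and 56.1, have the highest Neurod1 and the lowest Slc17a7 and Emx1, and normal mouse 1 with Cbln3 at 1.6 has Neurod1 at 5.4, in the range of the HFD mice.

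The ratio of Neurod2 to Neurod1 compares these factors within each mouse, without reference to other genes. It was 3.26, 0.589, 0.406 and 1.58 in normal mice 1 to 4 and 3.31, 3.26, 4.37 and 3.13 in HFD mice 1 to 4. The diets overlapped, as normal mouse 1 lay within the HFD range (exact permutation p = 0.0571). In normal mice 2 and 3 Neurod1 exceeded Neurod2, and in no other mouse did it.

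Bhlhe22 (ENSMUSG00000025128.7, chromosome 3, 18054174 to 18057517, plus strand), which has 1 exon, had the narrowest range of the 8 over all mice. It was 10.3, 11.3, 12 and 11.8 FPKM in normal mice 1 to 4 and 11.6, 13.0, 9.6 and 12.3 FPKM in HFD mice 1 to 4. The ranges of the diets overlapped, and normal mice 2 and 3 did not stand apart. The means were 11.4 ± 0.759 and 11.6 ± 1.47 FPKM, with a log2 fold change of 0.03 (SE 0.09, limma adjusted p = 0.841) whose sign turned after centring on pan-neuronal genes (-0.07). Its 95% confidence interval of -0.18 to 0.24 leaves out changes as large as those fitted for Emx1 and Slc17a7.

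The promoters of Slc17a7, Neurod2 and Neurod1 are printed because a transporter and a factor that rose stand beside a factor that did not, and because helix-loop-helix factors bind E-boxes. Sequences are those of RefSeq on GRCm38.p6, up to 250 bases upstream of the start site and shortened where another annotated start lay inside, 5′ to 3′ on the strand of the gene, with E-boxes in capitals.
Slc17a7 (chr7:45163671-45163920, plus strand): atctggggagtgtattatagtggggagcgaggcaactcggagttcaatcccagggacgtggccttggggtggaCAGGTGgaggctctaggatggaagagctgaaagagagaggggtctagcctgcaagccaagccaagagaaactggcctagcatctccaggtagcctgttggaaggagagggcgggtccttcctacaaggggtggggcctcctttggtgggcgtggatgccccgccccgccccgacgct
Neurod2 (chr11:98329649-98329895, minus strand): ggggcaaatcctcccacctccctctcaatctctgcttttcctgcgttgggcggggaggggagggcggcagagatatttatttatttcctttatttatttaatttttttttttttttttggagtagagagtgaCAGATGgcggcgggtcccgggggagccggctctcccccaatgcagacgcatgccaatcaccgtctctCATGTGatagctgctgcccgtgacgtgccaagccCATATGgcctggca
Neurod1 (chr2:79456786-79456886, minus strand): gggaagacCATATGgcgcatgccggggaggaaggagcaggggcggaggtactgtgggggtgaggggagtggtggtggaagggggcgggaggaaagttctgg

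A promoter was given for 7 of the 8 genes (not for Bhlhe22), with 9 RefSeq start sites in all. Upstream and all positions are counted from these start sites, which differ in part from the GENCODE spans given for the genes. By those spans the windows of Emx1 and of Mef2c start sites 2 and 3 lie inside the gene. Windows of Neurod1, Neurod2 and Nrgn run into the gene. The motif CANNTG, which reads as an E-box on both strands, occurred in the 250 bases upstream of 8 of the 9 start sites and at 1 site or more of each of the 7 genes, against 66.2% of 32851 promoters. CATATG, 1 form of CANNTG and the same on both strands, occurred upstream of 3 of the 7 genes, at -17 in Neurod2, -242 in Neurod1 and -100 in Mef2c, and in 3.46% of all promoters. CAGATG, another form, searched on both strands, occurred in 3 of the 7 and in 14.4% of all promoters, and CAGCTG, which is the same on both strands, in 0 of the 7 and in 13.0%. The single E-box of Slc17a7 in this window was CAGGTG at -177. Neurod2 and Neurod1, which both hold CATATG, had fitted log2 fold changes of opposite sign (0.31 and -1.40). That of Neurod1 did not pass the threshold, and with the cerebellar covariate both were positive (0.06 and 0.98). Whether these motifs bear on the values was not tested.

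Slc17a7, the glutamate transporter of the synaptic vesicle, rose in HFD mice. Slc17a7 (ENSMUSG00000070570.5, chromosome 7, 45163949 to 45176142, plus strand, 5 transcripts) was 290.4, 218.7, 209.5 and 315.8 FPKM in normal mice 1 to 4 and 337.1, 354.0, 403.9 and 340.3 FPKM in HFD mice 1 to 4. The lowest HFD mouse lay above the highest normal mouse, and normal mice 2 and 3 lay well below the other normal mice. The means were 258.6 ± 52.6 and 358.8 ± 30.9 FPKM (SD, n = 4 each). Its log2 fold change of 0.49 (SE 0.13, 95% confidence interval 0.20 to 0.79, limma adjusted p = 0.0193, exact permutation p = 0.0286) is a 1.41-fold increase. The call was lost without normal mouse 2 (0.42, limma adjusted p = 0.0537) or HFD mouse 3 (0.43, limma adjusted p = 0.0517). Without both normal mice 2 and 3 the difference was 0.24 (SE 0.08, limma adjusted p = 0.0818), and with the covariate 0.02 (limma adjusted p = 0.958). Slc17a7 has the same sign under each scaling tried, from 0.39 after centring on pan-neuronal genes to 0.53 after quantile normalization.

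Slc17a6, the vesicular glutamate transporter that prevails in the thalamus and brain stem, was highest where Slc17a7 was lowest. It was 12.1, 31.4, 27.8 and 10.6 FPKM in normal mice 1 to 4 and 10.9 to 13.6 FPKM in HFD mice. Normal mice 2 and 3 stood apart, and the rest overlapped (log2 fold change -0.60, limma adjusted p = 0.181, and 0.09 without normal mice 2 and 3). The ratio of Slc17a7 to Slc17a6 was 24.0, 6.96, 7.54 and 29.8 in normal mice 1 to 4 and 24.8 to 37.1 in HFD mice. Relative to Snap25, a general synaptic gene, Slc17a7 was 0.303, 0.260, 0.263 and 0.316 in normal mice 1 to 4 and 0.347 to 0.369 in HFD mice. The first ratio overlapped between the diets and the ratio to Snap25 did not. Of the 7 genes tested for glutamate supply and its vesicular transporters besides Slc17a7, 0 were called by limma in either direction and 1 passed an unadjusted p below 0.05, and their median log2 fold change was -0.02.

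Mef2c (ENSMUSG00000005583.16, chromosome 13, 83504034 to 83667080, plus strand, 31 transcripts) was 164.5, 111.3, 101.8 and 157.2 FPKM in normal mice 1 to 4 and 151.4, 185.4, 186.7 and 158.8 FPKM in HFD mice 1 to 4. Normal mouse 1 exceeded HFD mice 1 and 4, and normal mice 2 and 3 were low. With means of 133.7 ± 31.7 and 170.6 ± 18.1 FPKM, the log2 fold change was 0.38 (SE 0.15, 95% confidence interval 0.03 to 0.72, limma adjusted p = 0.0884). It was called without normal mouse 1 (0.49, limma adjusted p = 0.0327) or normal mouse 4 (0.46, limma adjusted p = 0.0491), and was 0.08 without normal mice 2 and 3 (limma adjusted p = 0.583). Microglia also express Mef2c, and 0 of the 6 microglial markers tested were called by limma (1 higher, Tmem119, at an unadjusted p below 0.05), with sums of 105.4 to 128.3 FPKM in normal mice and 110.7 to 121.9 in HFD mice.

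The relatives of Mef2c differed from each other. Mef2d, another MADS-box factor of neurons, was 28.8 ± 2.37 FPKM in normal mice and 43.5 ± 5.41 in HFD mice, without overlap, and rose by 0.59 on the log2 scale (limma adjusted p = 0.00201). Mef2d kept its call without normal mice 2 and 3 (0.50, limma adjusted p = 0.0161), though not with the covariate (0.39, limma adjusted p = 0.201). Mef2a stayed within 33.1 to 37.4 FPKM in the 8 mice (log2 fold change -0.09, limma adjusted p = 0.155).

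Nrgn (ENSMUSG00000053310.11, chromosome 9, 37544492 to 37552904, minus strand) did not separate the diets. It was 330.1, 230.9, 198.4 and 312.5 FPKM in normal mice 1 to 4 and 278.1, 327.2, 421.7 and 253.7 FPKM in HFD mice 1 to 4. The diets overlapped, and HFD mouse 3 was the highest. The means of 268.0 ± 63.4 and 320.2 ± 74.3 FPKM gave a log2 fold change of 0.26 (SE 0.19, 95% confidence interval -0.17 to 0.69, limma adjusted p = 0.319), and -0.03 without normal mice 2 and 3 (limma adjusted p = 0.914).

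Around Nrgn, genes that bind or sense calmodulin were called in both directions, as were all genes tested (17.7% higher and 15.3% lower). Of 14 such genes 2 rose (Camk2a and Camk2g, subunits of a calmodulin-dependent kinase) and 5 fell (Calm2, Pcp4, Pcp4l1, Camk4 and Ppp3ca), with a median of -0.07. The calls of Camk2a and Camk2g were lost without normal mice 2 and 3, at 0.23 (limma adjusted p = 0.233) and 0.17 (limma adjusted p = 0.192), and with the covariate, at -0.02 (limma adjusted p = 0.972) and 0.02 (limma adjusted p = 0.952). Pcp4, a small calmodulin-binding protein of the same class as neurogranin, fell from 504.9 ± 83.7 to 184.1 ± 6.74 FPKM (log2 fold change -1.44, limma adjusted p = 0.000140), and Pcp4l1 had a log2 fold change of -1.05 (limma adjusted p = 0.000126). Both kept their calls without normal mice 2 and 3 and with the covariate, at -1.29 and -1.30 for Pcp4 and -1.11 and -1.19 for Pcp4l1. Pcp4 is also abundant in the striatum, whose markers moved with diet in the same direction (9 of 9 tested genes lower), and their part in this result was not tested. Gap43, the axonal calmodulin-binding relative, did not pass the test (0.04, limma adjusted p = 0.725, with the sign turned after centring on pan-neuronal genes). Calm3, which encodes the same calmodulin protein as Calm2, had a log2 fold change of -0.07 (limma adjusted p = 0.396), and Calm2 fell by 0.38 on the log2 scale (limma adjusted p = 0.00411), a call lost under quantile normalization (-0.16, limma adjusted p = 0.0860).

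Ordered by their mean FPKM, the 8 genes stood in normal mice in the order Nrgn, Slc17a7, Mef2c, Neurod6, Neurod1, Neurod2, Bhlhe22 and Emx1, and in HFD mice Slc17a7, Nrgn, Mef2c, Neurod6, Neurod2, Bhlhe22, Emx1 and Neurod1. Nrgn and Slc17a7 overlapped in both diets, Bhlhe22 and Emx1 overlapped in HFD mice, and Neurod1 overlapped with Neurod6 and Neurod2 in normal mice. The other neighbours were separate in each mouse. Nrgn and Slc17a7 each exceeded 99.2% of mRNAs in mean FPKM, Mef2c 97.5% and Neurod6 82.3%, while Emx1 exceeded 42.4%. The fifth place of Neurod1 in normal mice rests on mice 2 and 3. Over normal mice 1 and 4 its mean was 8.35 FPKM and that of Emx1 8.65 FPKM, so that by the mean Neurod1 was last there. In normal mouse 4 alone Neurod1 (11.3 FPKM) exceeded Emx1 (8.9 FPKM), which it did in no HFD mouse.

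How the genes varied among mice of the same diet was described by Pearson's r of the deviations from the diet means over the 8 mice, in which normal mice 2 and 3 weigh most. It was 0.95 for Slc17a7 with Emx1, 0.94 for Slc17a7 with Mef2c and 0.89 for Slc17a7 with Nrgn. Neurod1 ran against them, with -0.90 for Neurod6, -0.89 for Emx1, -0.82 for Slc17a7 and -0.58 for Neurod2. Bhlhe22 was at 0.43 with Neurod1 and between -0.64 and -0.28 with the other genes. The protein-coding genes outside the group with the highest mean r over the 8 were Mapk11 (0.54), Asap1, RP24-399B3.5, Dnajb12 and Basp1, and those with the lowest were Rpa1 (-0.54), Cachd1, RP23-147O14.2, AC161108.3 and Brd7. Mapk11 was 16.8, 14.5, 13.3 and 18.1 FPKM in normal mice 1 to 4, low in mice 2 and 3 like Slc17a7, and Rpa1 was 18, 20.2, 21.4 and 17.5, high in these mice like Neurod1.

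**Figure D4:**
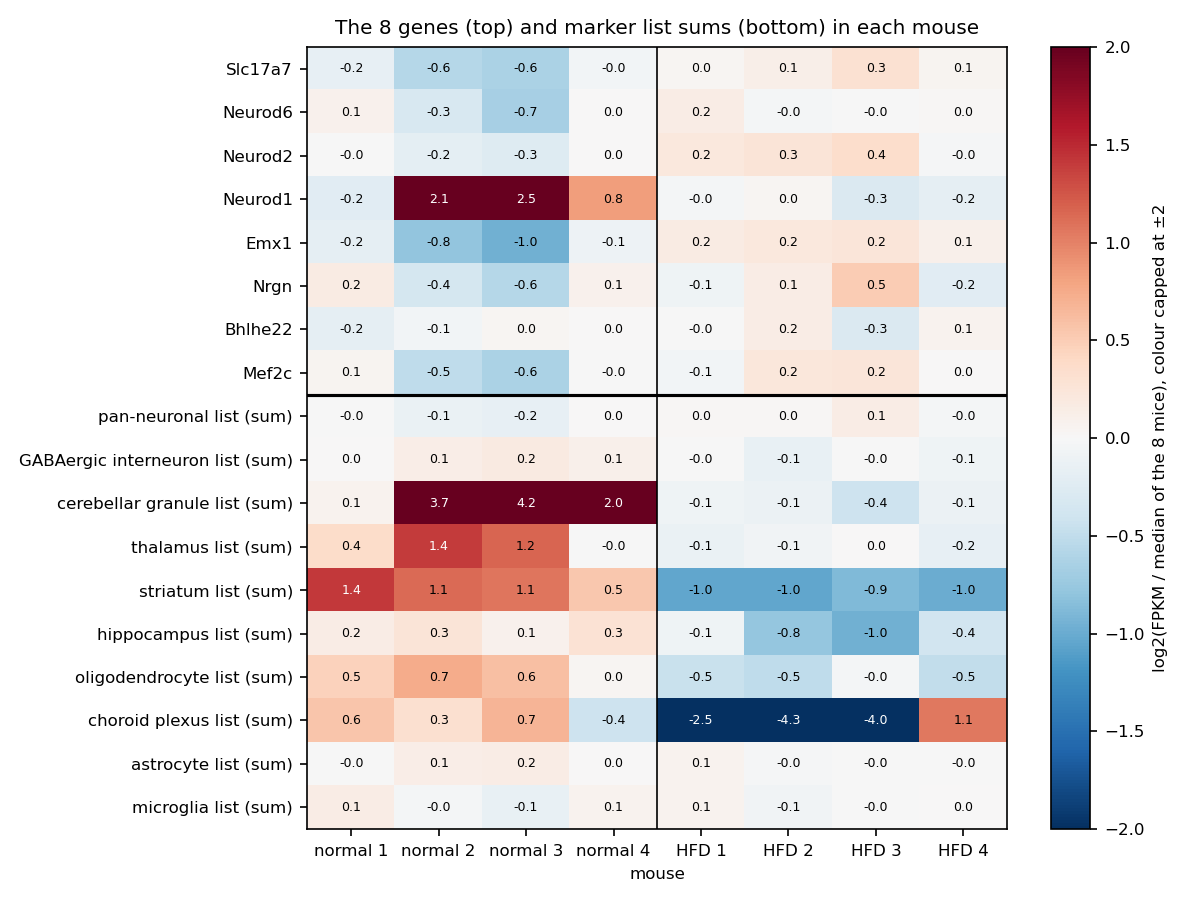
Log2 of FPKM over the median of the 8 mice (colour, capped at 2 either way, with the value printed in each cell) for the 8 genes and for the summed FPKM of 10 marker lists, with a column per mouse. Normal mice 2 and 3 are low in 6 of the 8 genes and high in Neurod1, the cerebellar granule list and the thalamus list, while the striatum list is high in 4 of 4 normal mice.

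Other transcription factors of the excitatory lineage were called too, some with larger fitted increases than Emx1. Of 14 listed, 11 were tested, 6 rose (Tbr1, Lhx2, Bcl11a and Nfib among them) and 1 fell (Pax6), with a median of 0.32. The shares over all genes tested were 17.7% higher and 15.3% lower. Tbr1, the T-box factor of deep layer and early-born neurons, was 12.4, 8.2, 8.1 and 14.1 FPKM in normal mice 1 to 4 and 19.4, 22.9, 27.2 and 17.7 FPKM in HFD mice 1 to 4. Each HFD mouse lay above each normal mouse, and normal mice 2 and 3 were again the lowest. The log2 fold change of Tbr1 was 1.04 (SE 0.20, limma adjusted p = 0.00442). Bcl11a, a zinc finger factor of cortical projection neurons, was at 0.95 (limma adjusted p = 0.000960), and Lhx2, a LIM homeobox factor of the cortex, at 0.89 (limma adjusted p = 0.00285). Unlike Slc17a7 and Neurod2, these genes kept their calls without normal mice 2 and 3, with log2 fold changes of 0.70 for Tbr1, 0.71 for Bcl11a, 0.60 for Lhx2 and 0.31 for Nfib. With the covariate 0 of these 4 were called by limma, and 2 (Bcl11a and Nfib) passed an unadjusted p below 0.05.

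Pax6, a factor of cortical progenitors that cerebellar granule cells also express, behaved like Neurod1. It was 3.4, 7.5, 8.5 and 5.4 FPKM in normal mice 1 to 4 and 2.8 to 3.1 FPKM in HFD mice (log2 fold change -0.98, limma adjusted p = 0.0131). The diets did not overlap, yet the call was lost without normal mice 2 and 3 (-0.54, limma adjusted p = 0.0617), and with the covariate the sign turned (0.16).

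**Figure D5:**
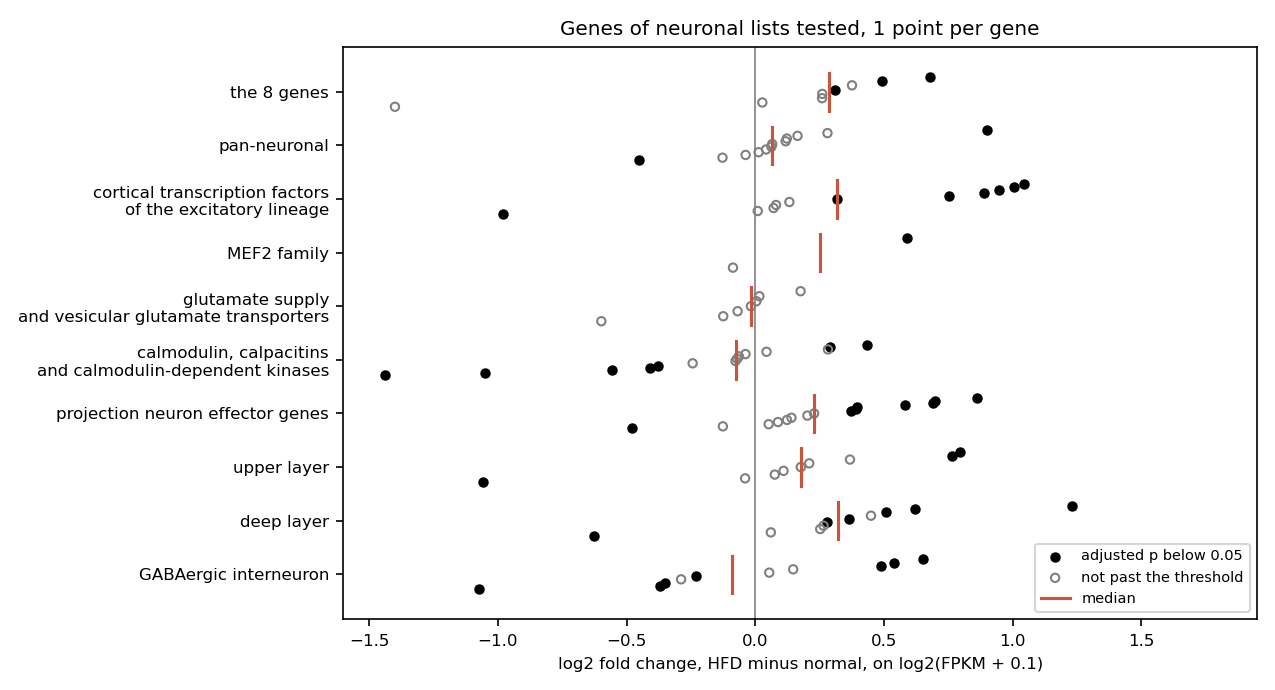
Log2 fold change (horizontal axis, HFD minus normal) of each tested gene in the 8-gene group and in 9 neuronal lists, with filled points for an adjusted p below 0.05, open points for the rest and a red bar for the median. The group has a median of 0.29, beside 0.06 for pan-neuronal genes, 0.32 for cortical transcription factors and -0.09 for GABAergic interneuron genes.

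Effector genes of projection neurons and layer genes were called in both directions, beside 17.7% higher and 15.3% lower over all genes tested. Of 15 effector genes 7 rose and 1 fell (Hpca, a neuronal calcium sensor), with a median of 0.23. Among the former, Slc30a3, which loads zinc into glutamatergic vesicles, had a log2 fold change of 0.69 (limma adjusted p = 0.00651), and Dkk3, a secreted protein of projection neurons, one of 0.86 (limma adjusted p = 0.00427). Both kept their calls without normal mice 2 and 3 (0.42 and 0.57) and lost them with the cerebellar granule covariate, at 0.14 (limma adjusted p = 0.699) and 0.20 (limma adjusted p = 0.568). With the covariate 3 of the 15 effector genes were called by limma, and at an unadjusted p below 0.05 it gave 0 higher and 6 lower. Of 9 upper layer genes 2 rose (Cux2 and Wfs1) and 1 fell (Calb1), and of 10 deep layer genes 5 rose (Fezf2, Tle4, Sox5, Ctgf and Rprm) and 1 fell (Foxp2). Calb1 was 33.6, 58.3, 65.4 and 35.7 FPKM in normal mice 1 to 4, and Foxp2 5.2, 6.5, 5.7 and 4.2. Both were thus highest in normal mice 2 and 3, though each normal mouse lay above each HFD mouse. Fezf2, the factor of subcerebral projection neurons, was 7.75 ± 2.02 FPKM in normal mice and 17.95 ± 2.14 in HFD mice (log2 fold change 1.23, limma adjusted p = 0.00141), and 0.92 without normal mice 2 and 3 (limma adjusted p = 0.00323). Cux2, a factor of upper layers, rose by 0.77 (limma adjusted p = 0.00140). With the covariate limma called 0 of the 9 upper and 0 of the 10 deep layer genes, and 1 and 3 of them passed an unadjusted p below 0.05. Fezf2 was then at 0.50 (limma adjusted p = 0.171) and Cux2 at 0.38 (limma adjusted p = 0.184). Sox5 lost its call without normal mice 2 and 3 (0.14, limma adjusted p = 0.157).

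Among genes shared by all neurons, 1 of 12 rose (Syn1, 0.90, limma adjusted p = 0.00237) and 1 fell (Nefm, -0.45, limma adjusted p = 0.0192), with a median of 0.06. Beside this list and the next, 17.7% of all genes tested were higher and 15.3% lower. Nefm lost its call without normal mice 2 and 3 (-0.29, limma adjusted p = 0.136), and with the covariate limma called 0 of the 12, with 1 past an unadjusted p below 0.05. Of 10 GABAergic interneuron genes 3 rose (Lhx6 and Vip among them) and 4 fell (Gad1, Gad2, Slc32a1 and Pvalb), with a median of -0.09. Gad1, which makes GABA, fell by 0.23 on the log2 scale (limma adjusted p = 0.00863). Pvalb, a calcium buffer of a class of interneurons, was 50.1, 140.3, 145.8 and 60.5 FPKM in normal mice 1 to 4 and 33.4 to 55.6 FPKM in HFD mice, so that normal mice 2 and 3 stood apart and normal mouse 1 overlapped with the HFD mice. Without normal mice 2 and 3 the calls of Pvalb (-0.38, limma adjusted p = 0.157) and Slc32a1 (-0.18, limma adjusted p = 0.207) were lost. With the covariate limma called 0 of the 10, and 0 passed an unadjusted p below 0.05. The summed FPKM of the pan-neuronal list was 2874.3 to 3257.3 in normal mice, lowest in mice 2 and 3, and 3152.4 to 3563.6 in HFD mice. Centring each mouse on this list left Emx1 (0.58), Slc17a7 (0.39) and Neurod2 (0.21) past the threshold, with limma adjusted p of 0.0174, 0.0205 and 0.0384, and added Neurod1.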

How the data were processed

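The authors sequenced cortex RNA of 8 mice, 4 of each diet. They checked and trimmed reads with FastQC and Trimmomatic, aligned them with STAR (mm10) and deposited FPKM values from Cuffnorm, which used GENCODE M17 gene models of GRCm38.p6. Versions of these tools: not given in the sources used here. FPKM is scaled for depth and length, and rounding to 0.1 kept whole reads from being recovered, so the depth is unknown.

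Here limma 3.58.1 in R 4.3.3 was run on log2(FPKM + 0.1) by diet with a variance trend. Two-sided p-values were adjusted by Benjamini-Hochberg over the 13982 genes whose mean FPKM was 1 or more and that had no 0, and the threshold was 0.05. A fold change on this scale understates changes of low genes. A change of 50% (1.5 times) was the further minimum. Values are mean ± SD over 4 mice. Exact permutation tests ran over 70 assignments in Python 3.11.15 with numpy 2.4.6, and figures were drawn with matplotlib 3.10.9. The procedure was tested on simulated data.

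Named were the 8 genes, genes of 21 lists (168 of 178 listed genes had a row) whose role is explained, members of related families whatever their values, and the 5 protein-coding genes with the highest and the 5 with the lowest mean r. Genes named as called in a list count under the list. The 8 genes and the lists were chosen with earlier results of these data known. Coordinates are from GENCODE M21 on GRCm38, promoters from RefSeq on GRCm38.p6. Alternatives were added constants of 1 and 0.01, no filter or a mean of at least 5, median-ratio, quantile and pan-neuronal scaling, a fit that drops the variance trend, a replicate block, the mean of the cerebellar granule list as a covariate, and leaving out each mouse in turn. The fit without normal mice 2 and 3 was added after seeing the data. Results of some list genes are not reported here. The Salmon and edgeR values and circRNA counts of the study were not used here.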

Additional observations from a re-analysis of the deposited data

Results flagged for a closer look

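In 58 groups of 4 mice (the 8 genes and 21 list sums in each diet), 4 groups held a mouse whose gap to its neighbour took up more of the group's range than Dixon's 95% critical value, where chance flags about 1 in 20 groups. None of the 16 groups of the 8 genes was among them. All 4 were sums of marker lists in HFD mice. The cerebellar granule list was lowest in HFD mouse 3 (12.7 FPKM, against 15.6 to 16.1 in the other HFD mice). The oligodendrocyte list was highest in HFD mouse 3 (2096.5 FPKM, against 1515.6 to 1572.6), the mouse with the highest Slc17a7, Neurod2, Emx1, Nrgn and Mef2c of its diet. The astrocyte list was highest in HFD mouse 1 (1231.5 FPKM). The choroid plexus list was highest in HFD mouse 4 (948.0 FPKM, against 22.8 to 79.0), the mouse with the lowest Neurod2, Emx1 and Nrgn of its diet.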

How the results depend on the processing

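The sign of the fitted log2 fold change of Slc17a7 and Neurod2 held under the alternatives run, that of Emx1 under all but the cerebellar covariate, and other constants, filters and scalings kept the calls of all 3. With the cerebellar granule list as a covariate, Slc17a7 was at 0.0229, Neurod2 at 0.0567, Neurod6 at -0.34, Neurod1 at 0.98, Emx1 at -0.0414, Nrgn at -0.40 and Mef2c at -0.25, and 0 of the 8 genes, 23 list genes (84 without it) and 281 of all genes (4626 without it) were called by limma, with 0 of the 8 past 50%. The cause of these losses was not tested, and the covariate differed between the diets, so the fit cannot separate its part from that of diet. Without normal mice 2 and 3, Slc17a7 was at 0.24, Neurod2 at 0.20, Neurod6 at -0.00521 and Nrgn at -0.0321, 1 of the 8 genes was called, 0 past 50%, and 2736 of all genes, with fewer mice in the fit. After centring on pan-neuronal genes, Neurod1 was at -1.50 and Bhlhe22 at -0.0689. The exact permutation test gave p = 0.0857 for Neurod2.

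With 1 mouse left out in turn, Slc17a7 ranged from 0.40 to 0.59, Neurod2 from 0.26 to 0.38, Neurod1 from -1.90 to -0.99, Bhlhe22 from -0.0286 to 0.12 and Mef2c from 0.26 to 0.49. Between 1 (without normal mouse 2 or HFD mouse 3) and 5 (without normal mouse 1) of the 8 genes were then called, and between 0 (without normal mouse 3) and 2 (without normal mouse 1 or 4) past 50%.

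Replicate numbers do not pair the mice. The labels name no shared litter or day, and r between the deviations of same-numbered mice was -0.04, -0.03, -0.11 and -0.07. With the replicate block, Slc17a7 stayed at 0.49 (limma adjusted p = 0.0516) and Neurod2 at 0.31 (limma adjusted p = 0.0765), leaving 1 of the 8 genes called.

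Among other named genes the sign turned with the covariate for Slc17a6 (0.67), Emx2 (-0.32), Pax6 (0.16), Camk2a (-0.0174), Snap25 (-0.10), Sox5 (-0.0132), Slc32a1 (0.0570), Pvalb (0.35), Vip (-0.00664), Dnajb12 (-0.11), Basp1 (-0.0798), Cachd1 (0.0252) and Brd7 (0.14), without normal mice 2 and 3 for Slc17a6 (0.0899), Emx2 (-0.11) and Brd7 (0.0309), and with pan-neuronal centring (-0.0527) or 1 mouse left out (from -0.00746 to 0.11) for Gap43. Rounding to 0.1 limits Emx2 and other genes near 1 FPKM.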

Other observations

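Activity-dependent genes, which Mef2c helps to regulate, gave calls in both directions, as did all genes tested (17.7% higher and 15.3% lower). Of 10 immediate early genes 1 rose (Egr3) and 3 fell (Fos, Arc and Egr2), with a median of -0.09. Fos was 21.6 ± 1.09 FPKM in normal mice and 9.28 ± 2.02 in HFD mice (log2 fold change -1.24, limma adjusted p = 0.000650), and Arc, a synaptic immediate early gene, 126.6 ± 26.2 and 73.3 ± 14.6 FPKM (-0.78, limma adjusted p = 0.00897). Both were lower in each HFD mouse than in each normal mouse and kept their calls without normal mice 2 and 3 (limma adjusted p = 0.00510 for Fos and 0.00984 for Arc). Egr3, an early growth response factor, rose by 1.02 on the log2 scale (limma adjusted p = 0.00301), from 15.0 ± 3.67 to 30.2 ± 5.32 FPKM, and kept its call without normal mice 2 and 3 at 0.73. With the covariate Fos and Arc were called, at -1.42 and -1.43 (limma adjusted p = 0.0321 and 0.0264), and Egr3 was at 0.47 (limma adjusted p = 0.338).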
